A study of Mus musculus with 30 samples.

Results

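Long intergenic noncoding RNAs (lincRNAs) are transcripts without a long open reading frame whose genes lie between, or only partly over, protein-coding genes. The genes described here are those whose transcripts are all typed as lincRNA in the deposited annotation, that lie on chromosomes 1 to 19, and whose effective count averages at least 50 over the libraries. They are 167 of 42439 genes, chosen from 2347 genes on these chromosomes with lincRNA transcripts only. The mean level over all libraries chose them, so their levels are a description, whereas the contrasts between groups were not used in the choice. The lowest members were 1700101I11Rik, with a mean count of 51.2, Gm15348 with 51.5 and mmu-mir-191 with 52.4, and the nearest genes left out were 1700040D17Rik with 49.4, 9530082P21Rik with 49.3 and Gm26840 with 49.0.

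RNA of the neural retina was sequenced from Abca4-/-Rdh8-/- mice on a C57BL/6J background, aged 4 to 6 weeks and housed with a daily 12 h period lit at 10 lux or less. Both alleles are shared by every group: the mice lack an outer segment transporter and a retinol dehydrogenase that clear all-trans-retinal from photoreceptors, and bright light damages their photoreceptors. A bright exposure was 10000 lux for 30 min, drug or DMSO solvent was injected 30 min before it, and retinas were taken 24 h after it. In the mixture experiment the groups were no light with DMSO, light with DMSO, light after BMT (bromocriptine, metoprolol and tamsulosin) and light after MDB (metoprolol, doxazosin and bromocriptine), and in the single-drug experiment they were no light and light, each with DMSO, and light after bromocriptine (BRM), metoprolol (MTP), tamsulosin (TAM) or doxazosin (DOX). Metoprolol is a beta blocker, doxazosin and tamsulosin are alpha blockers, and bromocriptine is a dopamine receptor agonist. Each of the 10 groups had 3 libraries, and no group received a drug without light. The labels do not say that libraries are separate animals, so p-values measure the spread between libraries.

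LincRNAs act in several ways: some scaffold nuclear bodies, some are processed into microRNAs or small nucleolar RNAs, some bind and destabilise microRNAs, and for some only the act of transcription affects a neighbouring gene. Many have no known function. In the retina, hosts of microRNAs and the nuclear transcripts Malat1 and Miat are among the best known.

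The libraries held 12.0 to 25.8 M gene counts, of which the members took 0.675 to 0.961%. Of 10 rod and cone markers 0 were at 0. Their summed level was 60140 to 70940 CPM (counts relative to library size) without light and 33250 to 41090 CPM with light in the mixture experiment, and 66560 to 71850 against 21540 to 30070 CPM in the single-drug experiment. In whole retina, fewer photoreceptors and less RNA per photoreceptor cannot be told apart. Lens-fibre markers were 6 genes under 8 identifiers, as Lim2 is listed more than once, and 1 identifier was at 0 throughout. These markers summed to between 5.86 and 2634 CPM. Among the libraries without light of the mixture experiment alone they ranged from 26.8 to 2510.0 CPM. The second TAM library stood apart from the other TAM libraries toward the light-only ones. The count of members called with TAM and the TAM changes of some members are given with and without it. All other TAM results include it.

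Sequences are shown for the members on which the results turn. Promoter windows run from 250 bases before to 50 bases after a RefSeq start site (GRCm38.p6). Of the 167 members, 97 matched a window by symbol, and 82 of these had a start site within 1000 nt of the gene's 5′ end in the count table. The 4 windows below belong to the member that fell most with light in the mixture experiment, to a member that fell together with its neighbour, to the member that rose most, and to a riser near the stress-induced gene Atf3. Capitals mark a match to one of the searched motifs, TTCNNNGAA (STAT), TGANTCA (AP-1), TGACGTCA or TGACGCA (CRE-like), on either strand.
BC055402, chr1:57214947-57215246, minus strand: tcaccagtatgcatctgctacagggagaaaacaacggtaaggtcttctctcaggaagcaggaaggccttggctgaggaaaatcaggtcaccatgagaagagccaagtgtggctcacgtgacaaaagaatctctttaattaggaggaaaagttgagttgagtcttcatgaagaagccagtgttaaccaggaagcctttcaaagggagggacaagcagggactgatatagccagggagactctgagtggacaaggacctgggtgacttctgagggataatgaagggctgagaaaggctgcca
2810030D12Rik, chr8:13200532-13200831, plus strand: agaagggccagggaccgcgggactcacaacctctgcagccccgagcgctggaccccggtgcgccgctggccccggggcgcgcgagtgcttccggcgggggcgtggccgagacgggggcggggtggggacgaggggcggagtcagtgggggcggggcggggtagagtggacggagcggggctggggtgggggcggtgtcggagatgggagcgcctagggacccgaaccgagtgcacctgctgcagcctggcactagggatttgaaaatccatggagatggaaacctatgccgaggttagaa
2810032G03Rik, chr12:5375470-5375769, plus strand: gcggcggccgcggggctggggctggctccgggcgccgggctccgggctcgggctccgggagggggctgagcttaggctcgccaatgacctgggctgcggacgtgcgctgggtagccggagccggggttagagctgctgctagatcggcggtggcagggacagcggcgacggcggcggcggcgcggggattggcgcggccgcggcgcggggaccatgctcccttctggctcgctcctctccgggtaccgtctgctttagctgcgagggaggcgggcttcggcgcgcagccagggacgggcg
D730003I15Rik, chr1:191224204-191224503, plus strand: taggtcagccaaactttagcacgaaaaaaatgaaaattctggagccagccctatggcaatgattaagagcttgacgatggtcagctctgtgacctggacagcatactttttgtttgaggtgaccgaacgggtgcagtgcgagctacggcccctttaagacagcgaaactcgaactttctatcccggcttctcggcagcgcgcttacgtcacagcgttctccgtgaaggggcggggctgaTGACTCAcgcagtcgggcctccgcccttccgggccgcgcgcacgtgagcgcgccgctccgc
The D730003I15Rik window held 1 AP-1 match, at position -11 from its start site, and the other 3 windows held no match. Of the 12 members called for light in both experiments that had a window, 3 held an AP-1 match (25%), 1 a CRE-like match (8.33%) and 0 a STAT match, beside 7.81%, 3.81% and 8.3% of all 32851 windows. Among the 82 members with a window the shares were 7.32% (AP-1), 13.4% (CRE-like) and 4.88% (STAT). A match is a description of letters, not of a bound site.

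Mature microRNAs lay on the same strand inside 15 members, by coordinates in the RefSeq table of the same build. Those of the hosts among these 15 that were called with light, or that share a microRNA with such a host, are given with the seed (bases 2 to 8) in capitals.
mmu-miR-9-5p, in Gm3764 and in C130071C03Rik: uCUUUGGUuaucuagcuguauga
mmu-miR-9-3p, in Gm3764 and in C130071C03Rik: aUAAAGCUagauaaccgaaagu
mmu-miR-670-5p, in E530001K10Rik: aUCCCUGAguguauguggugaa
mmu-miR-670-3p, in E530001K10Rik: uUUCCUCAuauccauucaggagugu
The 2 hosts of miR-9 carry the same mature sequences and so the same seeds. The libraries were made from poly(A) RNA, and mature microRNAs were not measured.

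Most members were low and a few were very abundant. Their median mean FPKM (fragments per kilobase of transcript, scaled to library size) was 5.46, against 11.5 for 12269 protein-coding genes that passed the same count minimum, and 46 of 167 members reached 10 FPKM. Members were shorter, with a median length of 2053 nt for the most counted transcript against 3108 nt, and similar in GC content, at 44.5% against 45.7%. The 10 members with the most counts held 74.9% of all member counts, and 48 members had a mean count under 100.

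The most abundant member per length was Yam1, at 450.8 ± 101.8 FPKM (SD over 30 libraries; lowest 307, median 425, highest 762). The current annotation gives its identifier the name Gm42418, and this locus is known to overlap ribosomal RNA sequence. Gm14290 followed at 322 ± 50.7 FPKM and BC033916 (Platr17) at 304 ± 41.0 FPKM. Mir124-2hg, a host of the neuronal microRNA miR-124, was at 272 ± 42.4 FPKM and ranged from 193 to 341 FPKM. Gm29562 and Malat1, the abundant RNA of nuclear speckles, lay close together at 169 ± 35.0 and 167 ± 47.3 FPKM. A930011O12Rik (Mir124a-1hg), another host of miR-124, had 149 ± 23.0 FPKM, 1700020I14Rik (Cyrano), known for promoting the decay of miR-7, had 127.5 ± 16.1 FPKM, and Meg3, a maternally expressed imprinted RNA, had 118 ± 25.1 FPKM. Neighbours in this order overlapped over the libraries, as the plot of the most abundant members shows.

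**Figure D1:**
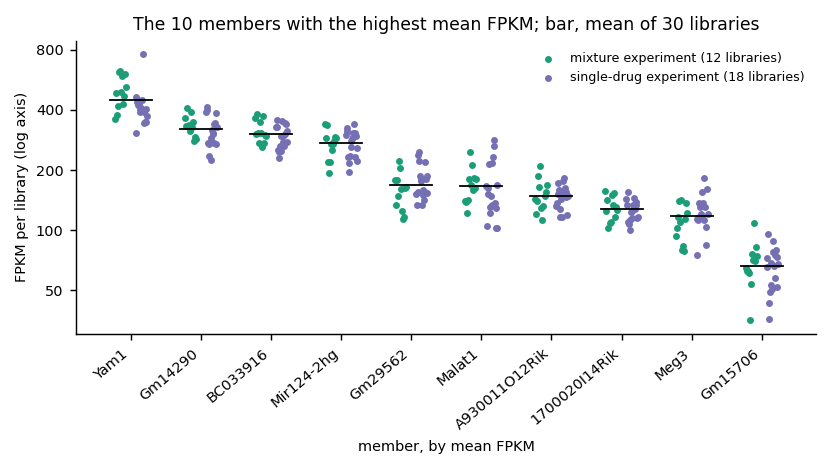
FPKM in each of 30 libraries for the 10 members with the highest mean (log axis), with mixture-experiment libraries in green, single-drug libraries in purple and a bar at the mean. Yam1 spans 307 to 762 FPKM and Gm15706, the last of the 10, has a mean of 66.4 FPKM.

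Bright light changed the levels of lincRNAs in both directions, and in either experiment more members fell than rose, except on FPKM without centring. In the mixture experiment 31 of 167 members were called at an adjusted p under 0.05 (edgeR quasi-likelihood test, Benjamini-Hochberg over all genes tested), which is 18.6%, beside 13.2% of all 16007 genes tested. Of these, 12 rose (7.19%, beside 7.75% of all genes) and 19 fell (11.4%, beside 5.47%). In the single-drug experiment 48 members were called (28.7%, beside 24% of 16249 genes), 15 higher (8.98%, beside 11.4%) and 33 lower (19.8%, beside 12.6%). The median log2 fold change of all members was -0.06 and -0.07, beside 0.01 and 0.02 for all genes. On FPKM without centring, where all genes shifted by 0.17 and 0.23, the split was 19 higher and 17 lower in the mixture experiment and 32 higher and 24 lower in the single-drug experiment. With each library's median set to 0 it was 9 and 24, and 11 and 32. Of the 12269 coding genes past the same count minimum, 14.7% were called in the mixture experiment and 27.9% in the single-drug experiment. The latter is close to the members' 28.7%. A mean count of at least 500 was reached by 6769 of these coding genes and by 30 members. Bands of mean count from 50, 100, 200 and 500 held 48, 51, 38 and 30 members. The single-drug experiment called 9, 15, 11 and 13 of them (18.8, 29.4, 28.9 and 43.3%). It called 15.6, 18.3, 22.8 and 34.1% of coding genes. The mixture experiment called 7, 10, 7 and 7 members (14.6, 19.6, 18.4 and 23.3%), beside 10.3, 11.5, 12.4 and 17.1% of coding genes. Each band's share thus rests on few members, and differences between these shares were not tested.

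The experiments share no library, so their light effects can be set beside each other. Both called 23 members, all in the same direction: 7 rose and 16 fell. They are 74.2% of the calls in the mixture experiment and 47.9% of those in the single-drug experiment. Over all genes the corresponding shares were 73.2% and 39.8%. Across the 167 members the effects had r = 0.783, and across 15868 genes tested in both r = 0.526, as a description over genes that share libraries. The genes tested include some under the members' count minimum of 50. Neither the shares nor the values of r are therefore matched for level. The difference between the light effects was tested in 1 fit of all libraries: edgeR called 0 of 167 members and 0 genes, with 17 members at an unadjusted p under 0.05. There DESeq2 called 1 member, Gm14290, and limma voom 0. Of all members, 101 were called in none of the 8 comparisons with light or drug.

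**Figure D2:**
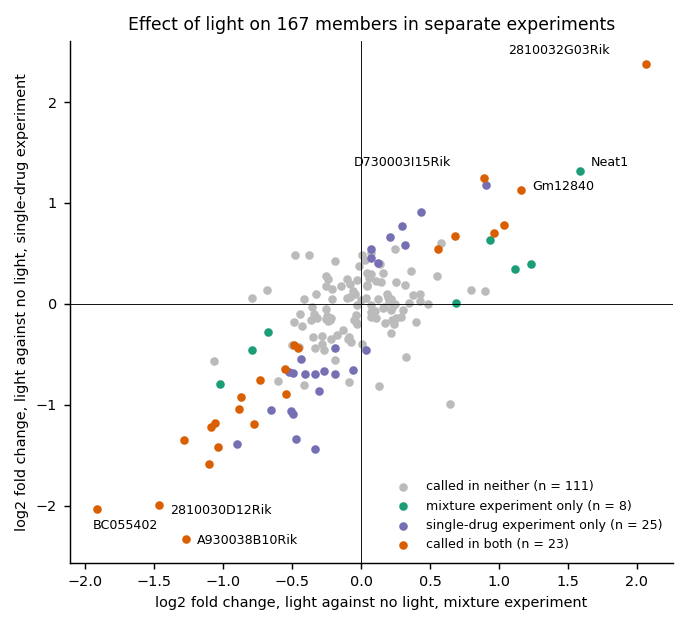
Log2 fold change of light against no light for each of 167 members in the mixture experiment (horizontal) and the single-drug experiment (vertical), coloured by where the member was called. All 23 members called in both (orange) lie in the lower left or upper right quadrant.

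BC055402, a lincRNA of chromosome 1 (57200645 to 57214993, minus strand) with 1 transcript of 3301 nt and no function known from the annotation, fell most in the mixture experiment. Its level there was 14.67, 12.70 and 15.04 CPM without light and 3.69, 4.38 and 3.14 CPM with light. In the single-drug experiment it was 11.5, 13.1 and 14.9 CPM without light and 3.11, 4.43 and 2.15 CPM with light. The groups did not overlap in either experiment. The log2 fold changes were -1.91 ± 0.14 (SE, edgeR adjusted p = 1.53e-05) and -2.03 ± 0.34 (adjusted p = 6.02e-04). Every drug group but 1 library lay above all light-only libraries by a wide margin: BMT had 20.4, 16.7 and 18.8 CPM, MDB 19.2, 19.2 and 16.8 CPM, and BRM 17.2, 23.5 and 17.2 CPM. MTP had 19.61, 13.67 and 20.03 CPM and DOX 12.4, 12.1 and 12.9 CPM. TAM had 19.2, 6.54 and 18.4 CPM, and its second library was the exception. All 6 drug groups were called higher than light alone, with log2 fold changes from 1.95 ± 0.34 (DOX, adjusted p = 0.00371) to 2.58 ± 0.34 (BRM, adjusted p = 6.56e-04). The single drugs share their light libraries, and so do the mixtures.

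2810030D12Rik (chromosome 8, 13200720 to 13207714, plus strand) lies head to head with Grtp1, which encodes a TBC-domain protein, with 96 nt between the gene bounds. It was at 10.5, 14.4 and 14.8 CPM without light and 4.08, 3.05 and 7.36 CPM with light in the mixture experiment. The single-drug values were 14.2, 12.9 and 14.2 CPM without light and 4.77, 2.26 and 3.27 CPM with light. Light-only libraries were thus below the others in both experiments, by -1.47 ± 0.26 (adjusted p = 0.00322) and -1.999 ± 0.31 (adjusted p = 4.18e-04) on the log2 scale. Grtp1 fell with it, by log2 -0.85 ± 0.14 (adjusted p = 0.00164) and -1.31 ± 0.18 (adjusted p = 2e-04). The printed window of 2810030D12Rik shares 257 of its 300 bases with the window of Grtp1, and their RefSeq start sites are 158 nt apart.

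Among other members that fell in both experiments, A930038B10Rik, 2 transcripts on chromosome 14, had log2 fold changes of -1.27 ± 0.22 and -2.33 ± 0.45. Its counts are few: with light it was at 1.27, 1.49 and 2.06 CPM and at 0.894, 0.518 and 0.870 CPM. Gm11342 (-1.28 and -1.35), Gm11754 (-1.10 and -1.58), F630040K05Rik (-1.09 and -1.22), C430042M11Rik (-1.055 and -1.18) and A330094K24Rik (-1.03 and -1.42) also fell. All 16 members lowered in both experiments lay between -0.46 and -1.91 in the mixture experiment. The members called lower had medians of -0.88 and -0.93. The median log2 fold change of the 10 rod and cone markers was -0.92 and -1.42, with 9 and 10 of 10 called lower. Of 10 inner retina and glia markers, 1 rose and 2 fell in the mixture experiment and 1 rose and 1 fell in the single-drug experiment. Glia markers of this list went both ways. Glul, the glutamine synthetase of Müller glia, fell by -1.87 and -1.73, and Rlbp1 by -0.39 and -0.27, the latter not called. The marker that rose in both experiments was Slc1a3, by 0.755 and 0.894. Of 10 blood and microglia markers 0 rose and 1 fell in either experiment, namely P2ry12, a receptor of microglia, at -1.57 and -2.10. Lens-fibre and pigment epithelium markers had 0 calls in both experiments. The markers' part in the members' fall was not tested. Gm15348 was called lower in the single-drug experiment (-1.39, adjusted p = 0.0189) and had -0.90 (adjusted p = 0.0898) in the mixture experiment.

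Some abundant members fell by less than 1 on the log2 scale. Mir124-2hg was at 945, 806 and 878 CPM without light and 525, 489 and 568 CPM with light in the mixture experiment. Its single-drug values were 870.4, 912 and 938 against 596, 546 and 471 CPM. No light-only library reached the lowest one without light. The change was log2 -0.73 ± 0.09 (adjusted p = 2.23e-04) and -0.75 ± 0.15 (adjusted p = 0.00233). A930011O12Rik, host of the same microRNA on chromosome 14, was not called: its log2 fold changes were 0.30 ± 0.13 and -0.07 ± 0.16. 1700020I14Rik (Cyrano) went from 1040.0, 844 and 969 to 618, 647 and 686 CPM, and from 983, 932 and 1082 to 689, 615 and 608 CPM. Again the groups were apart, with changes of -0.55 ± 0.10 (adjusted p = 0.00384) and -0.65 ± 0.09 (adjusted p = 2.41e-04). A930006I01Rik (-0.77 and -1.19, so by more than 1 in the single-drug experiment) and Gm9918 (-0.87 and -0.93) fell as well. Gm14290, the second most abundant member per length, fell from 535, 527 and 557 to 322, 262 and 306 CPM in the single-drug experiment (-0.86 ± 0.13, adjusted p = 3.31e-04). In the mixture experiment it was at 481, 452 and 506 against 390.4, 378 and 396 CPM, without overlap, and -0.30 ± 0.09 missed the threshold (adjusted p = 0.0536).

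2810032G03Rik (chromosome 12, 5375870 to 5416631, plus strand) rose most in both experiments. It lies head to head with Klhl29, a kelch-like gene, with 188 nt between the gene bounds. Its level was 2.34, 2.52 and 3.00 CPM without light and 10.7, 9.99 and 12.3 CPM with light in the mixture experiment, then 2.72, 2.18 and 2.11 against 12.3, 11.8 and 12.2 CPM in the single-drug experiment. The groups lay far apart, by log2 2.06 ± 0.26 (adjusted p = 3.26e-04) and 2.37 ± 0.42 (adjusted p = 9.52e-04). Klhl29 rose by 2.41 ± 0.23 (adjusted p = 5.95e-05) and 1.96 ± 0.38 (adjusted p = 0.0019). The RefSeq start sites of the pair are 38 nt apart and their promoter windows share 137 bases.

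After drugs, 2810032G03Rik was at 4.77, 2.99 and 2.38 CPM (BMT), 2.08, 1.79 and 2.81 CPM (MDB), 3.04, 2.12 and 3.26 CPM (BRM) and 3.84, 5.80 and 2.60 CPM (MTP). DOX had 5.14, 5.07 and 6.08 CPM, and TAM had 2.88, 10.9 and 3.01 CPM, with the second library near the light-only ones. It was called lower than light with BMT (-1.70 ± 0.25, adjusted p = 0.0011), MDB (-2.30 ± 0.26, adjusted p = 2.43e-04), BRM (-2.11 ± 0.41, adjusted p = 0.00489) and MTP (-1.57 ± 0.41, adjusted p = 0.0221). TAM, with its second library included (-1.10 ± 0.40, adjusted p = 0.0946), and DOX (-1.16 ± 0.40, adjusted p = 0.0698) missed the threshold.

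Gm12840, a single transcript of 627 nt on chromosome 4 (117700188 to 117700923), was at 5.69, 8.90 and 5.19 CPM without light and 14, 15.17 and 15.02 CPM with light in the mixture experiment. With the single drugs' controls it was at 8.004, 5.204 and 7.006 CPM and 12.9, 17.5 and 13.9 CPM. It was higher in each light-only library, by 1.16 ± 0.21 (adjusted p = 0.00322) and 1.13 ± 0.20 (adjusted p = 0.00103). In the drug groups the 18 libraries ranged from 5.17 to 9.37 CPM, all under the light-only ones, with log2 fold changes against light of -1.34 (BMT), -0.91 (MDB), -1.02 (BRM), -0.97 (MTP), -0.95 (TAM) and -1.08 (DOX), all called.

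D730003I15Rik (chromosome 1, 191224454 to 191226140) lies 6415 nt from Atf3, a transcription factor induced by many kinds of stress. Its level rose from 3.55, 3.95 and 3.33 to 6.98, 6.14 and 7.05 CPM in the mixture experiment and from 2.97, 3.16 and 2.74 to 7.49, 7.59 and 6.01 CPM in the single-drug experiment. These groups did not overlap, and the log2 fold changes were 0.89 ± 0.18 (adjusted p = 0.0061) and 1.25 ± 0.19 (adjusted p = 3.88e-04). Atf3 itself rose by 3.31 ± 0.29 (adjusted p = 4.1e-05) and 3.25 ± 0.59 (adjusted p = 0.00113). In all 6 drug comparisons D730003I15Rik was called lower than light, from -0.85 (BMT) to -1.13 (BRM). Its 18 drug libraries ran from 2.72 to 5.18 CPM, and the highest was the second TAM library.

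**Figure D3:**
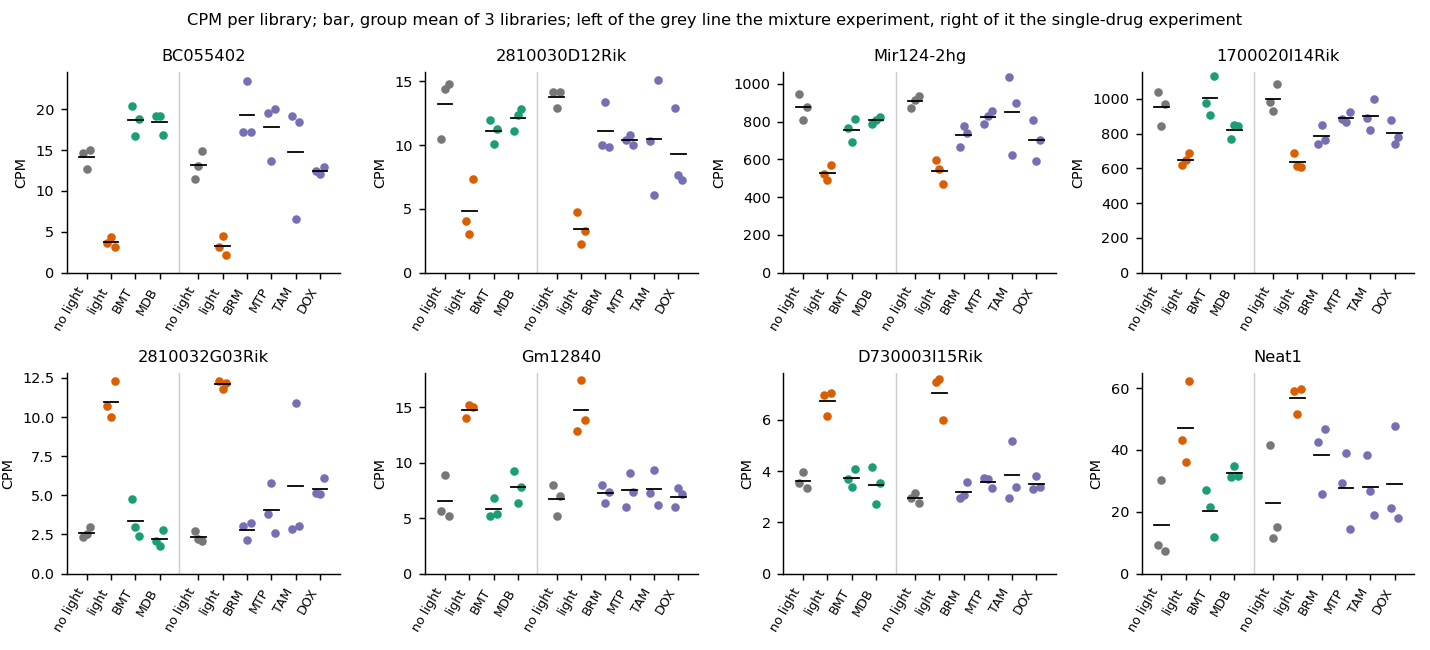
CPM in each library for 8 members, by group, with a bar at the mean of 3 libraries and a vertical axis from 0 in each panel. Light-only libraries (orange) lie below all others for BC055402 and above all others for Gm12840, and the second TAM library reaches 10.9 CPM for 2810032G03Rik.

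Snhg12, which hosts small nucleolar RNAs, rose in both experiments, from 16.2, 15.1 and 15.8 to 25.6, 23.1 and 26.8 CPM and from 12.7, 12.9 and 16.3 to 22.6, 20.6 and 23.3 CPM. Groups did not overlap and the changes were 0.68 ± 0.09 (adjusted p = 4.7e-04) and 0.67 ± 0.15 (adjusted p = 0.00467). Snhg1 and Snhg18 were called in the single-drug experiment (0.77 ± 0.15 and 0.92 ± 0.19) and not in the mixture experiment (0.30 ± 0.14 and 0.43 ± 0.20), and the difference between the experiments was called for neither. Of 19 snoRNA host genes tested, members and others together, 1 was called higher and 0 lower in the mixture experiment, and 8 higher and 0 lower in the single-drug experiment. Over all genes 7.75% and 5.47% were called higher and lower in the mixture experiment, and 11.4% and 12.6% in the single-drug experiment. The list's median log2 fold change was 0.09 and 0.34. Those called in the single-drug experiment outside the members included Gas5 (0.50) and Snhg4 (1.22), as well as Rian (0.40), which the table lists under 2 identifiers, so that it makes 2 of the 8.

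Of the 15 members with a mature microRNA of the RefSeq table inside, 2 were called in the mixture experiment and 1 in the single-drug experiment, beside 13.2% and 24% of all genes. Mir124-2hg, which fell in both experiments, and A930011O12Rik are not among these 15, because the RefSeq table used lacks mature miR-124. The 15 are thus not all members that host a microRNA. E530001K10Rik (Mir670hg) fell by -0.46 ± 0.13 (adjusted p = 0.0424) and -0.44 ± 0.15 (adjusted p = 0.0458). Gm3764, 1 host of miR-9, rose in the mixture experiment from 3.30, 3.51 and 4.09 to 8.30, 5.22 and 7.36 CPM, which is 0.93 ± 0.24 (adjusted p = 0.0238). In the single-drug experiment it was at 4.48, 3.90 and 2.48 against 5.58, 6.41 and 4.85 CPM, and 0.63 ± 0.28 was not called (adjusted p = 0.127). C130071C03Rik, which carries the same miR-9 sequences, was at 33.6 to 49.8 CPM over the libraries without light and with light, and its changes of -0.10 ± 0.08 and 0.24 ± 0.13 were not called. Mir17hg (0.12 and 0.04), Mirg (0.13 and 0.39) and Meg3 (0.11 and 0.23) were not called either. A list of 11 host genes of known microRNAs tested, members and others together, does not hold Mir124-2hg. Of it 0 were called higher and 1 lower in the mixture experiment, beside 7.75% and 5.47% of all genes. The single-drug experiment had 3 higher and 1 lower, beside 11.4% and 12.6%, and the 3 are Mir22hg and the 2 identifiers of Rian.

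Neat1, the scaffold RNA of paraspeckles, was higher with light but spread widely. In the mixture experiment it was at 9.24, 30.4 and 7.47 CPM without light and 43.2, 36.1 and 62.2 CPM with light. In the single-drug experiment it was at 41.5, 11.5 and 15.1 CPM and 59.0, 51.5 and 59.6 CPM. The groups did not overlap, and 1 library without light stood high in each experiment. The log2 fold change was 1.59 ± 0.47 (adjusted p = 0.0443) in the mixture experiment, where it was called, and 1.32 ± 0.48 (adjusted p = 0.0585) in the single-drug experiment, where it was not. There it was called with the replicate number as a block (1.42, adjusted p = 0.0435), by DESeq2 (1.32, adjusted p = 0.0496), by limma voom (1.56, adjusted p = 0.0157) and on FPKM (1.86, adjusted p = 0.00736). It stayed uncalled there with other size factors (adjusted p = 0.0564), without a filter (0.0591) and with only the compared groups in the fit (0.0683). With only the compared groups in the fit, the call in the mixture experiment was lost (adjusted p = 0.0961).

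Both of those high libraries also had the highest lens-fibre level of their group. In 7 of the 10 groups the library with the most Neat1 was the one with the most lens-fibre RNA. Among the 8 groups other than light with DMSO this held in 6. Whether lens-fibre RNA had a part in the Neat1 level was not tested. With the mean log2 level of the lens-fibre markers as a covariate the change in Neat1 was 2.06 (adjusted p = 2.2e-04) and 1.35 (adjusted p = 0.00348). Leaving out any 1 of 5 libraries ended the call in the mixture experiment (adjusted p from 0.0662 to 0.153), and without the second library without light, the exception, it was 2.48 (adjusted p = 8.01e-04). Without the first library without light of the single-drug experiment it was 2.09 (adjusted p = 0.0064). Leaving out any other library compared there gave no call (adjusted p from 0.0984 to 0.192). The short form of 3004 nt held 86.2% of Neat1 counts and the long form of 20771 nt, on which paraspeckles depend, held 12.9%. That long form is poorly captured by poly(A) selection, as is Malat1. After drugs Neat1 ranged from 11.7 to 47.8 CPM, and no drug comparison was called.

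Of 15 genes of paraspeckle proteins, 0 rose and 1 fell in the mixture experiment (Hnrnpr, -0.27), where 13.2% of all genes were called. With 24% of all genes called in the single-drug experiment, 1 rose (Rbm3, 0.82) and 1 fell (Smarca4, -0.42). Of 10 RNAs of nuclear bodies or known abundant nuclear RNAs, 2 were called higher and 0 lower in the mixture experiment (beside 7.75% and 5.47% of all genes), and 0 higher and 1 lower in the single-drug experiment (beside 11.4% and 12.6%). Malat1 had log2 fold changes of 0.34 ± 0.17 and 0.00 ± 0.34, neither called, and its level ran from 644 to 1859 CPM over the 30 libraries, highest in the first TAM library, which was also the least deeply sequenced. Miat (-0.14 and 0.17) and Yam1 (0.29 and -0.13) were not called, and the highest Yam1 level, 1260.0 CPM, was that of the third MTP library. For the remaining lists too, the shares of all genes called higher and lower are 7.75% and 5.47%, then 11.4% and 12.6%. Of 9 imprinted noncoding genes tested, 0 were called in the mixture experiment. In the single-drug experiment 2 rose, which are the 2 identifiers of Rian. Of 14 retinal and neural noncoding genes 1 rose and 1 fell, then 0 rose and 2 fell. Of 8 stress and p53 noncoding genes 1 rose, then 2 rose, with 0 lower in either. Of 15 identifiers of nuclear speckle and splicing protein genes 0 were called, then 2 rose and 1 fell. They stand for 14 genes, as Srsf1 is listed more than once.

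With drugs given before light, more members rose than fell from the level with light alone in each of 6 comparisons, except with BMT on FPKM without centring. With BMT 40 members were called (24%, beside 17.7% of all genes), 28 higher (16.8%, beside 7.96%) and 12 lower (7.19%, beside 9.78%). MDB called 20 (12%, beside 9.63%), 15 higher (beside 3.7%) and 5 lower (beside 5.93%), the latter being 2810032G03Rik, D730003I15Rik, Gm12840, Snhg12 and Gm16701. BRM called 16 (9.58%, beside 14.4%), 12 higher (beside 7.08%) and 4 lower (beside 7.32%): 2810032G03Rik, D730003I15Rik, Gm12840 and Gm20645. MTP called 26 (15.6%, beside 10.3%), 20 higher (beside 5.37%) and 6 lower (beside 4.91%). TAM called 26 (15.6%, beside 10.6%), 23 higher (beside 6.6%) and 3 lower (beside 4%), which were Gm12840, D730003I15Rik and Snhg18. DOX called 22 (13.2%, beside 11.9%), 16 higher (beside 6.79%) and 6 lower (beside 5.06%). Of the 12269 coding genes past the same count minimum, 20.3% (BMT), 10.9% (MDB), 16.9% (BRM), 11.8% (MTP), 12.6% (TAM) and 14.4% (DOX) were called. The members' share was above theirs with BMT, MDB, MTP and TAM and below theirs with BRM and DOX.

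Some of these counts rest on few libraries or on the scale. For DOX 5 members were called without its first library and 6 without the second light-only library. For TAM 39 were called without its second library, 33 higher and 6 lower, and 2 when the TAM and light libraries were fitted alone, A930006I01Rik and A330094K24Rik. On FPKM without centring the splits of higher and lower were 19 and 28 (BMT), 11 and 9 (BRM), 14 and 10 (MTP), 18 and 11 (TAM) and 14 and 13 (DOX), and for BMT with centring 32 and 7. Without the second TAM library the change with TAM was 2.55 for BC055402 (2.18 with it), 1.89 for 2810030D12Rik (1.60), -1.13 for Gm12840 (-0.95) and -1.14 for D730003I15Rik (-0.86), all called in both fits. The rod and cone markers rose over light alone in each comparison, 9 or 10 of 10 called, with medians from 0.71 to 1.13, and their part in the members' rise was not tested.

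Calls of light in one experiment can be followed in the drug groups of the other, since no library is shared. Of the 19 members lowered by light in the mixture experiment, 9 were called higher with BRM, 14 with MTP, 14 with TAM and 11 with DOX, and 0 were called lower. Over all 876 genes lowered there, 51%, 62%, 66.6% and 52.3% were called higher. Of the 12 members raised, 3, 3, 2 and 2 were called lower with BRM, MTP, TAM and DOX, beside 50.6%, 43.2%, 35.1% and 29.8% of 1236 genes raised. Of the 33 members lowered by light in the single-drug experiment, 21 were called higher with BMT and 12 with MDB, beside 39.4% and 21.3% of 2047 genes. Of the 15 raised, 7 were called lower with BMT and 5 with MDB, beside 43.9% and 38.3% of 1835 genes.

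The same members, averaged per library as those raised minus those lowered on the log2 CPM scale, gave one value a library. In the mixture experiment it was -1.43 ± 0.13 (SD, n = 3) without light, -0.12 ± 0.11 with light, -1.33 ± 0.23 with BMT and -1.26 ± 0.08 with MDB. The single-drug values were -1.73 ± 0.24 without light, 0.24 ± 0.11 with light, -1.31 ± 0.23 (BRM), -1.33 ± 0.34 (MTP), -1.24 ± 0.62 (TAM) and -1.16 ± 0.27 (DOX). Each drug library lay below all light-only libraries of its experiment. The second TAM library, at -0.55, came nearest to them, beside -1.45 and -1.74 in the other TAM libraries.

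**Figure D4:**
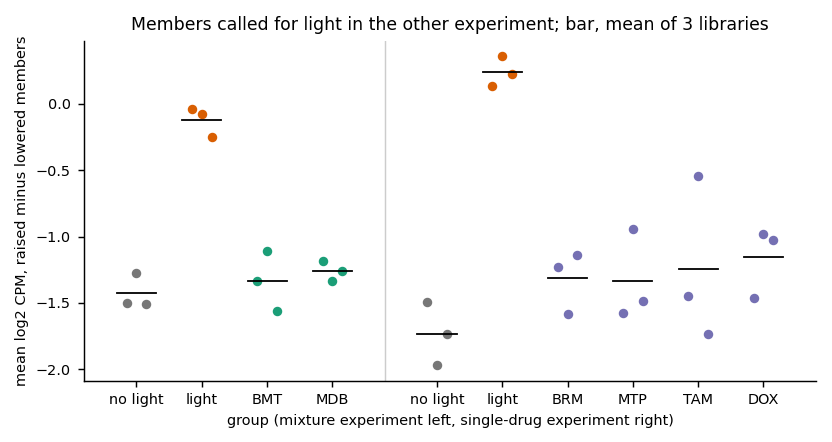
Mean log2 CPM of members raised minus members lowered by light in the other experiment, for each library, with a bar at the mean of 3. Light-only libraries lie between -0.25 and 0.36 and every other library lies lower, the second TAM library at -0.55.

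Of the 167 members, 38 overlapped a protein-coding gene, 32 of them on the opposite strand, and 100 lay within 5 kb of one or overlapped it. The kit keeps strand, but the sources used here do not state that counting used it. The 37 members head to head with a coding gene within 5 kb were the largest near class. Among 36 such pairs tested, 3 were called in the same direction and 0 in opposite directions in the mixture experiment, and 8 and 0 in the single-drug experiment. Among 1076 and 1077 head-to-head pairs of coding genes the counts were 17 and 5, and 69 and 15. Across the members' pairs r was 0.753 and 0.762, and it was 0.365 and 0.499 without the 2 members that changed most. Across the coding pairs r was 0.330 and 0.305, as a description over genes of the same libraries. Besides Klhl29 and Grtp1, F630040K05Rik fell beside 1600014C23Rik (-1.22 and -1.77, in the single-drug experiment), and Gm16701 rose beside Fam78b in both experiments (0.56 with 0.48, and 0.54 with 0.28).

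**Figure D5:**
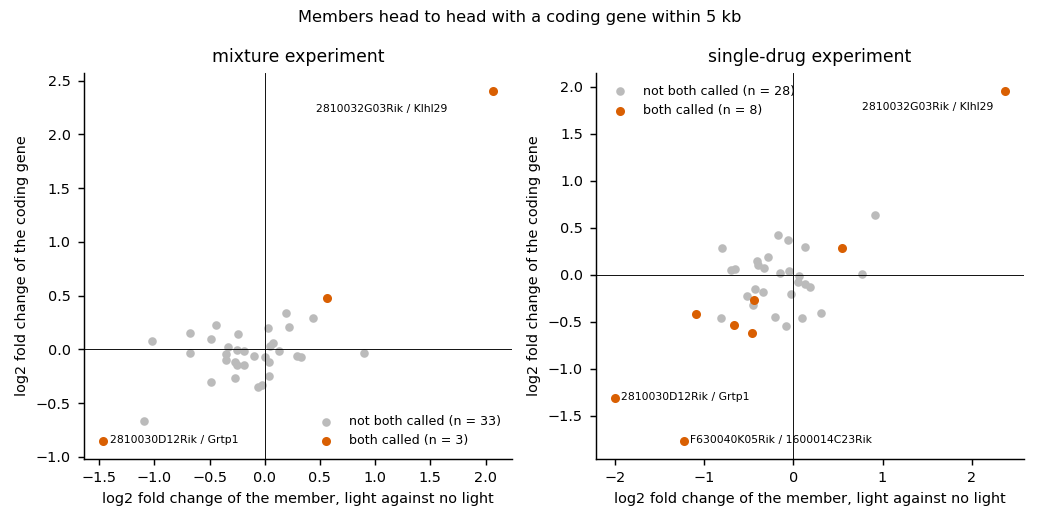
Log2 fold change of light against no light for members (horizontal) and for the coding gene head to head with them within 5 kb (vertical), in each experiment. Orange points, both called, lie in quadrants of equal sign, and 2810032G03Rik with Klhl29 lies farthest out in both panels.

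For a further 14 members the nearest coding gene lay on the same strand and within 5 kb upstream. Reads of an extended coding transcript could there be counted to the member. Counting any same-strand coding gene, not only the nearest, 17 members had one within 5 kb upstream. Gm28875, 3807 nt past Syne3, which encodes a nuclear envelope protein, went from 14.2, 12.5 and 12.2 to 4.68, 4.62 and 5.09 CPM with light in the single-drug experiment. The change was -1.44 ± 0.20 (adjusted p = 1.81e-04), and Syne3 changed by -1.47 ± 0.17. In the mixture experiment Gm28875 was at 9.75, 10.8 and 10.8 against 6.496, 8.273 and 10.24 CPM, where -0.33 ± 0.18 was not called and Syne3 fell by -0.57 ± 0.13. Whether such reads belong to the lincRNA or to the coding gene was not tested. Across these 14 pairs r was 0.553 in the mixture experiment and 0.815 in the single-drug experiment. Without the 2 members that changed most it was 0.606 and 0.607. Across the 32 pairs overlapping on opposite strands r was 0.398 and -0.058, and 0.344 and -0.067 without the 2 members that changed most.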

How the data were processed

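Neural retina RNA was sequenced in 30 libraries, paired-end after poly(A) selection with a kit that keeps strand, per the labels' protocols. The submitters' processing notes name Trimmomatic, Bowtie2, TopHat2, eXpress, edgeR, limma and the build GRCm38.p3, without roles, and no source used here gives versions. The authors deposited estimated counts (the effective counts of eXpress) and FPKM per transcript, per the file headers. Effective counts were summed per gene and rounded. Each experiment was fitted alone with edgeR 4.0.16 (filterByExpr, TMM, quasi-likelihood test, Benjamini-Hochberg over all genes tested, threshold 0.05), and the difference between light effects in a fit of all 30 libraries. All 167 members passed the filter. FPKM was tested as log2(FPKM + 0.1) with limma 3.58.1. CPM is the gene count scaled to the TMM-adjusted library size. Members and gene lists were chosen with earlier results of these data known. Members named in the text are the 10 with the highest mean FPKM, for light in each experiment the 8 called members that rose most and the 8 that fell most, for each drug the 4 of each direction with the largest change, those called for light in both experiments, and members of the lists. The lists were host genes of small nucleolar RNAs and of microRNAs, imprinted, retinal and neural, and stress and p53 noncoding genes, nuclear RNAs, paraspeckle proteins, nuclear speckle and splicing proteins, and markers of rods and cones, inner retina and glia, lens fibres, pigment epithelium, and blood and microglia. Genes outside the members, such as Gas5, Snhg4, Rian, Mir22hg, Hnrnpr, Rbm3, Smarca4, Glul, Rlbp1, Slc1a3 and P2ry12, were named after their values were seen. The fits were tested on simulated counts. Alternatives were other size factors, no filter, DESeq2, limma voom, a replicate block, FPKM, a lens-fibre covariate, the groups compared alone and each library left out. Centring each library's FPKM was chosen after seeing the data. Counts that eXpress splits among overlapping or near-identical genes are uncertain. One neighbouring gene is not reported here.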

Additional observations from a re-analysis of the deposited data

How the results depend on the processing

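Of 192 values of named members, 133 kept their direction and side of the threshold under every setting other than leaving out libraries, 104 also under those, and 0 changed sign. For TAM the count of called members was 2 when only the groups compared were fitted, against 26, and DESeq2 called 1 member for the difference between light effects, against 0. Leaving out 1 library gave 22 to 39 members for light in the mixture experiment, 34 to 44 for light in the single-drug experiment, 18 to 35 for BMT, 12 to 22 for MDB, 9 to 16 for BRM, 16 to 23 for MTP, 13 to 39 for TAM, 5 to 22 for DOX and 0 to 0 for the difference. Counts moved by over 1.5 times without light-only library 1 (20) or 2 (22) or BMT library 3 (18) for BMT, and without light-only library 2 for MDB (12). In the single-drug experiment they did so without light-only library 2 for BRM (9), MTP (16), TAM (15) and DOX (6), and without BRM library 2 (10), MTP library 1 (16) or 3 (17), TAM library 3 (13) or DOX library 1 (5); the cause was not tested. Same-numbered libraries of different groups did not deviate together (mean r = 0.0145 over 18 pairs and -0.0019 over 45). With the replicate number as a block, members called were 31 and 48 for light in the mixture and single-drug experiments, 38 for BMT, 24 for MDB, 17 for BRM, 25 for MTP, 25 for TAM, 21 for DOX and 0 for the difference. Members with few counts limit the precision: 48 had a mean count under 100.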
